A study of Mus musculus with 18 samples.

Results

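The response to liraglutide was compared between the atria and the left ventricle (LV) of mouse hearts 3 days after infarction. For every gene the liraglutide effect (liraglutide minus PBS, log2) in the atria was set against the mean of the effects in infarcted and non-infarcted LV, and the difference between them was tested. All 18 libraries of the series entered 1 fit, and 13920 of the 25230 gene symbols were abundant enough to be tested. The hearts came from male C57BL/6J mice whose left anterior descending coronary artery had been tied. Groups were atria with liraglutide and atria with PBS, infarcted LV with liraglutide and infarcted LV with PBS, and non-infarcted LV with liraglutide and non-infarcted LV with PBS, each with 3 libraries that the labels call biological replicates. All groups were infarcted, so no value refers to an uninjured heart. The sources used here state neither the dose and schedule of liraglutide, nor the age of the mice, nor whether libraries of different regions came from the same animals. The p values measure the spread between these libraries only.

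Liraglutide is a long-acting agonist of the glucagon-like peptide-1 (GLP-1) receptor, a receptor that couples to Gs and raises cAMP. In the mouse heart the receptor transcript is known mainly from the atria, and in the whole animal its agonists act on insulin release, blood glucose, appetite and heart rate. Levels below are counts scaled to the library total (CPM). Differences are log2 values from the fit, after TMM scaling, and a positive difference means a higher liraglutide effect in the atria than in the LV.

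Glp1r, the receptor gene itself, was scarce. It had 1.66, 0.602 and 0.732 CPM in atria with liraglutide and 1.496, 0.584 and 1.28 CPM in atria with PBS. In the LV it was at 0 in all but 2 libraries, 1 of infarcted LV with liraglutide (0.0922 CPM) and 1 of non-infarcted LV with PBS (0.12 CPM). The 2 atrial groups overlapped. A count of 0 in these LV libraries allows up to 3 counts, which is 0.176 to 0.701 CPM depending on library depth, so no difference of effects is given for this gene.

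Library totals ran from 13849938 to 21853482 counts in atria with liraglutide, 6262832 to 18839472 in atria with PBS, 8211804 to 11181101 in infarcted LV with liraglutide, 4280459 to 10772531 in infarcted LV with PBS, 11991818 to 15698897 in non-infarcted LV with liraglutide and 8341694 to 17016262 in non-infarcted LV with PBS. Markers of other tissue were raised in 3 atrial libraries. Myl2, which encodes the regulatory light chain of ventricular myosin, had 275, 8.30 and 924 CPM in atria with liraglutide and 8.82, 5.95 and 2.08 CPM in atria with PBS, against 7695 to 11180 CPM over the LV libraries. The summed level of the 11 ventricular cardiomyocyte markers was 1814 to 4621 CPM in atria with liraglutide and 2178 to 2347 CPM in atria with PBS. Adipoq, the adipocyte hormone adiponectin, had 4.84, 1.61 and 3.89 CPM in atria with liraglutide and 1.02, 79.25 and 0.319 CPM in atria with PBS, and Ucp1, the uncoupling protein of brown fat, had 88.8 CPM in the same PBS library 2 and at most 0.144 CPM in any other library. Liraglutide libraries 1 and 3 and PBS library 2 of the atria therefore stand apart, and results that rest on them are given with and without them. Leaving out all 3 keeps only liraglutide library 2 in its group, so values from that fit rest on 1 atrial liraglutide library. Atrial groups were also more variable: the median SD of log2 CPM over genes was 0.199 in atria with liraglutide and 0.175 in atria with PBS, and between 0.129 and 0.150 in the 4 LV groups. The atrial and ventricular tissue labels fitted their markers otherwise, since the 17 atrial cardiomyocyte markers summed to 55740 to 75070 CPM in atrial libraries and 1972 to 2735 CPM in LV libraries.

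One gene differed between the chambers in its response. Lbh, which encodes a transcriptional cofactor first described in the limb bud and the developing heart, passed the threshold of an adjusted p of 0.05 with a log2 difference of 1.15 (SE 0.168, adjusted p = 0.0196, edgeR quasi-likelihood test with Benjamini-Hochberg adjustment). That is 1 of 13920 genes (0.00718%), and 0 genes passed with a lower effect in the atria. At an unadjusted p under 0.05 there were 1048 genes (7.53%), 639 with a higher and 409 with a lower effect in the atria, 4.59% and 2.94% of those tested. DESeq2 called 98 genes (0.704%), 88 higher (0.632%) and 10 lower (0.0718%). The limma-voom test with sample quality weights called 177 (1.27%), 108 higher (0.776%) and 69 lower (0.496%). Against infarcted LV alone and against non-infarcted LV alone edgeR called 0 genes, with 903 and 750 genes at an unadjusted p under 0.05 (6.49% and 5.39%). DESeq2 called 26 genes against infarcted LV and 35 against non-infarcted LV, and voom with sample quality weights called 86 and 12.

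Lbh, on chromosome 17 (72918305 to 72941947, plus strand, mm10), had 83.6, 73.7 and 100.4 CPM in atria with liraglutide and 38.8, 46.45 and 61.0 CPM in atria with PBS. In infarcted LV it had 249, 250.4 and 199 CPM with liraglutide and 274, 255.5 and 261 CPM with PBS. In non-infarcted LV it had 377, 366 and 410.3 CPM with liraglutide and 455, 438 and 474 CPM with PBS. In CPM every liraglutide library of the atria was above every PBS library, and every liraglutide library of both LV regions was below every PBS library of its region. After TMM scaling the atria and non-infarcted LV stayed apart and infarcted LV overlapped, with 244, 256 and 192.5 CPM with liraglutide and 274, 247 and 255 CPM with PBS. Means were 85.9 ± 13.5 and 48.75 ± 11.3 CPM in the atria (liraglutide and PBS, SD, n = 3 each), 233 ± 29.2 and 263.7 ± 9.66 CPM in infarcted LV, and 384 ± 23.2 and 456 ± 18 CPM in non-infarcted LV. In the same fit Lbh rose in the atria (0.93, SE 0.139, adjusted p = 0.0077), while the effects of -0.16 (SE 0.134) in infarcted and -0.27 (SE 0.133) in non-infarcted LV did not pass (adjusted p = 1 for both). Taken against each LV region alone the difference was 1.09 (adjusted p = 0.119) against infarcted and 1.20 (adjusted p = 0.065) against non-infarcted LV.

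Lbh is also one of the 11 genes listed as ventricular cardiomyocyte markers, with several times more CPM in the LV than in the atria, and Myl2 was raised in 2 of the 3 atrial libraries with liraglutide. The part of ventricular RNA in the Lbh difference was not tested. Over the 3 atrial liraglutide libraries Lbh and Myl2 ran in the same order. Library 2 had 73.7 CPM of Lbh and 8.30 CPM of Myl2, library 1 had 83.6 and 275 CPM, and library 3 had 100.4 and 924 CPM. Each of these Lbh values was above each of the 3 PBS libraries, where the order of the genes was the reverse. Without liraglutide libraries 1 and 3 and PBS library 2 the difference was 0.94, with an adjusted p of 0.114 in edgeR and a single liraglutide library that was assumed to vary like the others. Leaving out each of the 18 libraries in turn kept the difference between 1.02 and 1.35 and ended the call for 8 of them. These were atrial liraglutide library 1 (adjusted p = 0.17) and PBS library 2 (0.176), infarcted LV PBS libraries 1 (0.0619) and 3 (0.0543), and non-infarcted LV liraglutide libraries 1 (0.0621) and 2 (0.0666) and PBS libraries 1 (0.05 after rounding) and 3 (0.0852).

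**Figure D1:**
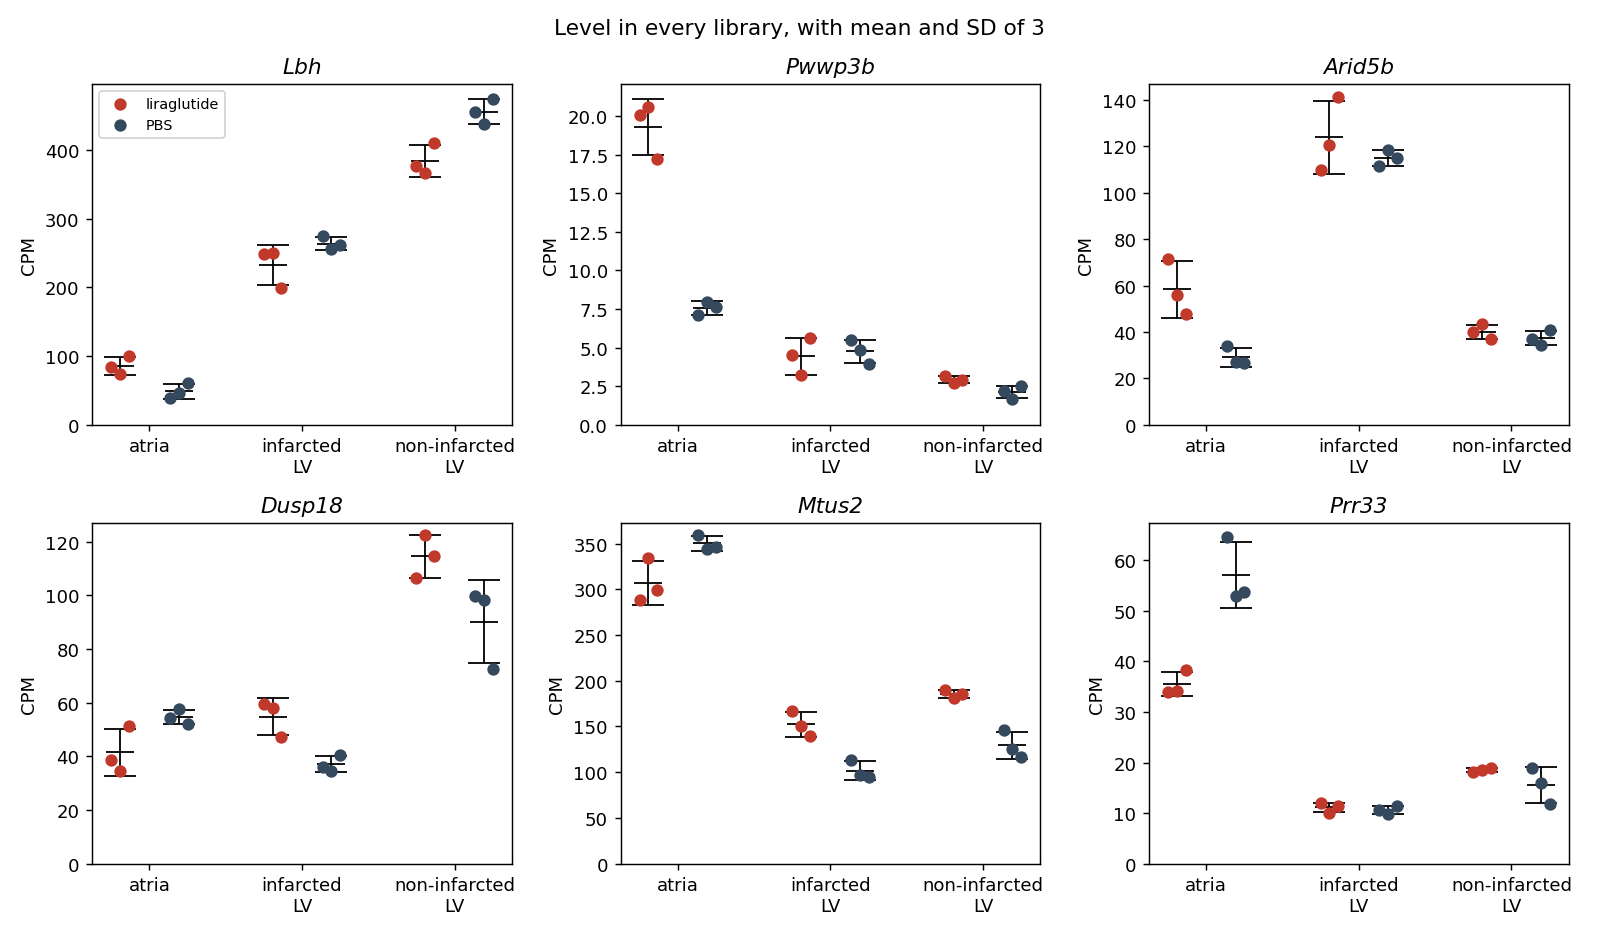
CPM (vertical axis, from 0) of 6 genes in every library, by region and treatment; points are libraries, bars the mean and SD of 3. Values are not TMM-scaled. Lbh is higher with liraglutide than with PBS in the atria and lower in both LV regions, Dusp18 and Mtus2 show the opposite arrangement (after TMM scaling Lbh overlaps in infarcted LV and Mtus2 in the atria), and Pwwp3b, Arid5b and Prr33 separate by treatment in the atria and overlap in infarcted LV. Pwwp3b also separates in non-infarcted LV, in the same direction as in the atria.

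Genes were also counted by whether their liraglutide and PBS libraries overlapped in each region, which depended on the scaling. In CPM over the library total, treatments did not overlap in 2047 genes in the atria (14.7%), 1343 in infarcted LV (9.65%) and 1261 in non-infarcted LV (9.06%). In 11 genes (0.079%) they did not overlap in any region, with the LV regions opposite to the atria, and in 29 genes (0.208%) they did not overlap with the same direction in all 3. Higher with liraglutide in the atria and lower in both LV regions were 5 genes (0.0359%), Lbh, Nes, Fabp3, Sez6l2 and Smyd1. Lower in the atria and higher in both LV regions were 6 genes (0.0431%), Dusp18, Mtus2, Gfod1, Rinl, Eloa and Sar1a. After TMM scaling, an alternative chosen after seeing the data, 9 genes (0.0647%) had the opposite pattern and 21 (0.151%) the same direction in all 3. Only Dusp18, Fabp3, Rinl and Sez6l2 of the 11 met the pattern in both scalings, and Lbh, Nes, Smyd1, Mtus2, Gfod1, Eloa and Sar1a overlapped in at least 1 region after scaling. These genes were picked by their values, so they carry no further test.

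Among those 11, Nes, the intermediate filament nestin, had 92.4, 72.7 and 47.1 CPM in atria with liraglutide and 37.2, 41.2 and 46.9 CPM in atria with PBS. Infarcted LV had 112, 90.15 and 116 CPM with liraglutide and 145, 150.3 and 125.5 CPM with PBS. The difference was 1.20 (SE 0.258, adjusted p = 0.138, edgeR). Smyd1, a muscle histone methyltransferase needed for myofibril assembly, had 471, 461 and 445 CPM in atria with liraglutide and 436, 427 and 442 CPM in atria with PBS, and in non-infarcted LV 678, 706 and 708 CPM with liraglutide and 783, 773.5 and 873 CPM with PBS. Its difference was 0.40 (SE 0.119, adjusted p = 0.317, edgeR). Both genes were apart in the atria by small margins, 47.1 against 46.9 CPM for Nes, and overlapped there after TMM scaling. Scaled values of Nes were 101.5, 78.5 and 43.96 CPM in atria with liraglutide and 36.2, 37.9 and 46.4 CPM in atria with PBS, and those of Smyd1 were 517, 498 and 416 CPM with liraglutide and 425.5, 393 and 436 CPM with PBS.

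Next to Lbh, 4 genes among those with the smallest p for a higher effect in the atria missed the threshold with an adjusted p of 0.116 each in edgeR. Pwwp3b, a member of the PWWP domain family, had 20.1, 20.6 and 17.25 CPM in atria with liraglutide and 7.08, 7.96 and 7.66 CPM in atria with PBS, with effects of 1.47 in the atria, -0.14 in infarcted and 0.45 in non-infarcted LV and a difference of 1.31 (SE 0.237). Prkag3, the gamma-3 regulatory subunit of AMP-activated protein kinase, had 17.6, 14.99 and 7.05 CPM in atria with liraglutide and 4.17, 4.67 and 5.11 CPM in atria with PBS, with a difference of 1.92 (SE 0.367). The groups of both genes did not overlap in the atria, and LV levels were 1.69 to 5.63 CPM in every library for the pair. Pwwp3b was also higher with liraglutide, without overlap, in non-infarcted LV in either scaling. It had 3.19, 2.74 and 2.92 CPM there with liraglutide and 2.17, 1.69 and 2.52 CPM with PBS. In infarcted LV Pwwp3b overlapped. Arid5b, a DNA-binding cofactor of a histone demethylase, had 71.5, 55.9 and 47.6 CPM in atria with liraglutide and 33.9, 26.96 and 26.5 CPM in atria with PBS (difference 1.02, SE 0.198). Ctbp2, a transcriptional corepressor, had 35.5, 34.9 and 28.9 CPM in atria with liraglutide and 21.3, 19.1 and 21.7 CPM in atria with PBS (difference 0.82, SE 0.167). In all 4 the atrial effect alone passed the threshold in the same fit, with adjusted p between 0.00112 (Pwwp3b) and 0.0143 (Prkag3), and the LV effects lay between -0.29 and 0.45.

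On the lower side the 6 genes with the smallest p had adjusted p values of 0.116 to 0.138 in edgeR. In Mtus2 and Dusp18 the LV effects were larger in size than the atrial effect. Mtus2, which encodes a microtubule-associated protein, had 288, 334 and 299 CPM in atria with liraglutide and 359.5, 344 and 347 CPM in atria with PBS. Infarcted LV had 166, 150.5 and 140.0 CPM with liraglutide and 114, 96.8 and 94.4 CPM with PBS, and in non-infarcted LV 190.2, 181.5 and 185.5 CPM with liraglutide and 146, 125 and 117 CPM with PBS. The mean LV effect of Mtus2 passed the threshold (0.545, SE 0.0756, adjusted p = 0.00868, edgeR). It was the 1 gene of 13920 called for both LV regions together (0.00718%), where 687 genes (4.94%) had an unadjusted p under 0.05. After TMM scaling the atrial groups of Mtus2 overlapped, with 316, 360.5 and 279 CPM with liraglutide and 350.5, 317 and 343 CPM with PBS. For Mtus2 the atrial effect was -0.08, and the difference was -0.62 (SE 0.129, adjusted p = 0.116). Dusp18, a dual-specificity phosphatase, had 38.6, 34.6 and 51.2 CPM in atria with liraglutide and 54.2, 57.4 and 52.05 CPM in atria with PBS. Infarcted LV had 59.4, 57.9 and 47.0 CPM with liraglutide and 36.2, 34.6 and 40.65 CPM with PBS. Effects of Dusp18 were -0.30 in the atria, 0.59 in infarcted and 0.32 in non-infarcted LV, and the difference was -0.75 (SE 0.143, adjusted p = 0.116).

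In the other 4 on the lower side the atrial effect was the larger one. Prr33, annotated as a lincRNA in the mm10 gene set, had 34.01, 34.2 and 38.25 CPM in atria with liraglutide and 64.7, 52.9 and 53.8 CPM in atria with PBS (difference -0.74, SE 0.152). Mustn1, a small musculoskeletal protein, had 18.05, 16.1 and 18.4 CPM in atria with liraglutide and 30.7, 30.2 and 29.5 CPM in atria with PBS (difference -0.86, SE 0.184). Cdr2l had a difference of -0.77 and Zdhhc9, a palmitoyltransferase, of -0.50. The atrial groups of these 4 genes did not overlap, and their atrial effects, -0.43 to -0.68, passed the threshold in the same fit (adjusted p = 0.028 to 0.045).

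**Figure D2:**
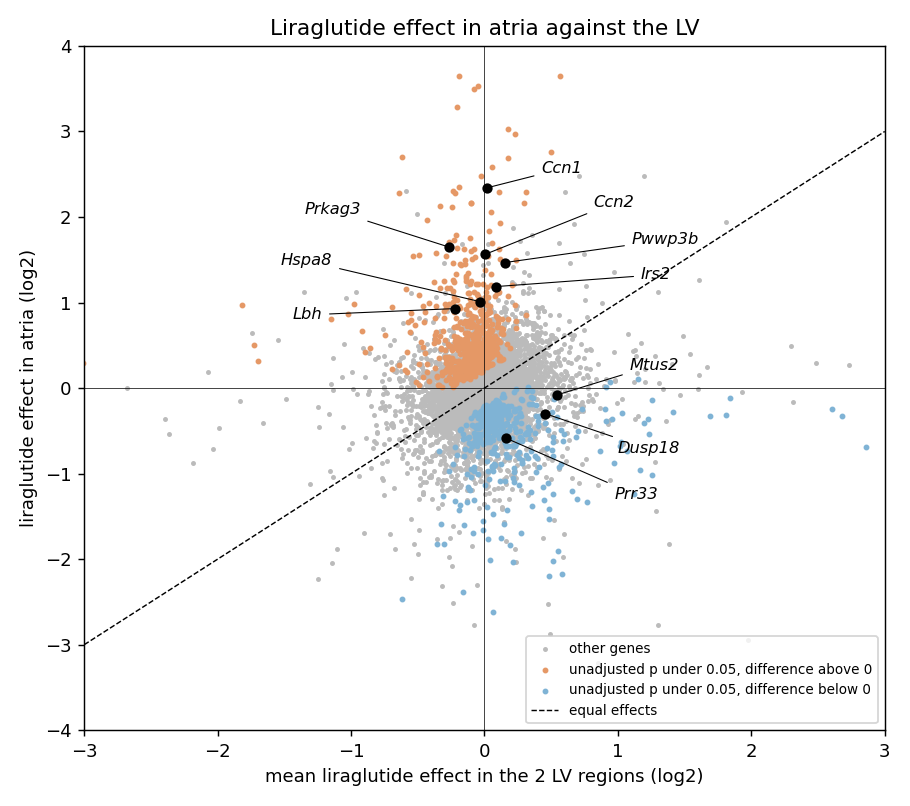
Mean liraglutide effect of the 2 LV regions (horizontal axis, log2) against the effect in the atria (vertical axis, log2) for the tested genes; 10 genes lie outside the drawn range. Genes with an unadjusted p under 0.05 for the difference lie above or below the dashed line of equal effects, spread along the vertical more than the horizontal axis, with Mtus2 and Dusp18 among those displaced to the right.

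Genes with an unadjusted p under 0.05 for the difference had an atrial effect larger in size than the mean LV effect in 928 of 1048 cases (88.5%), against 65.9% of all genes tested. The LV effect is a mean over 2 regions and 12 libraries, with a median SE of 0.109, while the atrial effect rests on 6 libraries and had a median SE of 0.149, so this share is a description with no test. Within regions edgeR called 94 genes for the atria (0.675%), 66 higher (0.474%) and 28 lower (0.201%), with 1762 (12.7%) at an unadjusted p under 0.05. It called 0 genes for either LV region, where 411 genes in infarcted (2.95%) and 388 in non-infarcted LV (2.79%) had an unadjusted p under 0.05.

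Chaperones, which hold unfolded proteins, shared one sign. The list is of cytosolic chaperones apart from Hspd1 and Hspe1, which encode mitochondrial ones. All 21 listed chaperones were tested and all 21 had a positive difference, where 52% of all genes tested did. None passed the adjusted threshold in edgeR, 16 had an unadjusted p under 0.05 (4.59% of all genes on the higher side), and DESeq2 called 6 (0.632% of all genes). The median difference was 0.77, against 0.01 over all genes, with a median effect of 0.78 in the atria, -0.01 in infarcted and -0.16 in non-infarcted LV. Their summed level was 30990, 26920 and 15240 CPM in atria with liraglutide and 12760 to 16370 CPM in atria with PBS, so liraglutide libraries 1 and 2 were high and library 3 lay within the PBS range. Without library 3 edgeR called 10 of the 21 (1.35% of all genes tested were then called higher), and without library 3 and PBS library 2 it called 7 (0.752%). Without libraries 1 and 3 and PBS library 2 the median was 1.03, resting on liraglutide library 2, itself among the high ones.

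Hspa8, the constitutive 70-kDa chaperone, had the smallest p of them. It had 5251, 5149 and 3217 CPM in atria with liraglutide and 2152, 2440 and 2798 CPM in atria with PBS, and 2001 to 3989 CPM over the LV libraries, with a difference of 1.05 (SE 0.229, adjusted p = 0.138, edgeR). Hspb8, a small heat shock protein of Z-discs that works with Bag3, had 1176, 912 and 453 CPM in atria with liraglutide and 376, 403 and 520 CPM in atria with PBS (difference 1.23, SE 0.329, adjusted p = 0.279). Dnaja1, a J-domain partner of Hspa8, had 216, 158 and 102 CPM in atria with liraglutide and 56.2, 82.2 and 81.3 CPM in atria with PBS (difference 1.36, SE 0.349, adjusted p = 0.24). Groups overlapped in the atria for Hspb8 and did not for the other two. Hspa1a, the stress-induced 70-kDa chaperone and a choice made from its values, stood at 2061, 956 and 166 CPM in atria with liraglutide and 46.05, 20.6 and 67.2 CPM in atria with PBS, a difference of 4.68. Non-infarcted LV had 6.37, 26.3 and 57.6 CPM with liraglutide and 9.17, 17.1 and 82.1 CPM with PBS, with overlapping groups. Hspa1a and its near-identical neighbour Hspa1b may share reads, so their split is uncertain.

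Promoters of 3 chaperones are shown, each with a match to at least a pair of the units that make up the heat shock element. Many members of the list are heat shock genes, for which this element is known. A high share in the list therefore tells nothing about liraglutide. The heat shock element is built from inverted GAA units, and the windows run from 250 bases before to 50 bases after the start of the gene (RefSeq, GRCm38.p6). A pair of units, GAANNTTC or TTCNNGAA on either strand, occurred in 11 of the 17 chaperones with a window (64.7%), against 17.0% of 27025 genes. A run of 3 units, the pair extended by NNGAA or NNTTC, occurred in 4 of the 17 (23.5%), against 0.662% of genes. The run contains the pair, and a match describes these letters only. No pair was found in the windows of Dnajb1, Hspb7, Hspa4, Hspa4l, Ahsa1 and Stip1. Capitals mark the matched units below, on the minus strand for each gene.
Hspa1a, chr17:34972107-34972406: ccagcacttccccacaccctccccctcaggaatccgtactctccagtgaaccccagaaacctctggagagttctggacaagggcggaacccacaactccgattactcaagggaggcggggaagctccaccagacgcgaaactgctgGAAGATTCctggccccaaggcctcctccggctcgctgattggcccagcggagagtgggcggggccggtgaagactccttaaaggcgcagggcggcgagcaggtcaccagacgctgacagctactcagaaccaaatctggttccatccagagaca
Hsph1, chr5:149636266-149636565: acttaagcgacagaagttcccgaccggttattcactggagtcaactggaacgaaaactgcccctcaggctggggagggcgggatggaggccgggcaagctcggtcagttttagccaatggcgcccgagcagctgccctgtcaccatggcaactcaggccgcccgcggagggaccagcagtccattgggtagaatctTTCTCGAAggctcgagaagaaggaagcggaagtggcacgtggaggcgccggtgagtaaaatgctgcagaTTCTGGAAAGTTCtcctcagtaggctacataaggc
Hspb8, chr5:116422815-116423114: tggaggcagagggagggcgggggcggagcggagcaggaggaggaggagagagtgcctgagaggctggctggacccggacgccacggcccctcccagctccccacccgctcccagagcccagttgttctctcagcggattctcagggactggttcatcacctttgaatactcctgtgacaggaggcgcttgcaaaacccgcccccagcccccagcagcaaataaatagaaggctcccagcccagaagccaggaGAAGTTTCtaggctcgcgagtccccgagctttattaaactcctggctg
Hspa1a and Hspb8 carry a single pair of units, and Hsph1 carries a pair and, nearer the start, a run of 3. The pair of Hspb8 and the run of Hsph1 lie in the 50 bases after the start. The difference of Hsph1 was 0.69 (SE 0.528, adjusted p = 0.843, edgeR), that of Hspa1a 4.68 and that of Hspb8 1.23.

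Genes that respond to stretch and to fetal-type stress in cardiomyocytes had the largest median of the lists with at least 10 tested members. Of 16, all tested, 15 had a positive difference, 11 had an unadjusted p under 0.05 (4.59% of all genes on the higher side) and 0 passed in edgeR, while DESeq2 called 10 (0.632% of all genes). The median was 1.09, made of 1.01 in the atria, -0.05 in infarcted and -0.23 in non-infarcted LV. Lmod2, a leiomodin that elongates actin thin filaments, had 1091, 840 and 719 CPM in atria with liraglutide and 448, 436 and 537 CPM in atria with PBS, groups that did not overlap, with a difference of 1.08 (SE 0.218, adjusted p = 0.116, edgeR). Fhl1, a LIM protein of the titin complex, had 1505, 1329 and 1059 CPM in atria with liraglutide and 643, 538 and 764 CPM in atria with PBS (difference 1.11, SE 0.246, adjusted p = 0.138). The natriuretic peptides are hormones that the stretched atrium secretes. Nppb had 1654, 1309 and 1151 CPM in atria with liraglutide and 920.5, 753 and 1192 CPM in atria with PBS (difference 0.73, SE 0.351, adjusted p = 0.689, edgeR). Nppa had 29780, 34800 and 26620 CPM in atria with liraglutide and 35260, 32130 and 37690 CPM in atria with PBS (difference 0.34, SE 0.387, adjusted p = 0.91). Both overlapped in the atria. Effects of Nppa were -0.09 in the atria, -0.46 in infarcted and -0.40 in non-infarcted LV. Its positive difference thus came with lower fitted levels in the LV and no rise in the atria, and none of these effects passed the threshold. Without liraglutide library 3 of the atria edgeR called 9 of the 16 list members (1.35% of all genes). Without libraries 1 and 3 and PBS library 2 the median was 1.01, with 1 atrial liraglutide library left.

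YAP and TEAD are mechanosensitive transcription partners, and their targets Ccn1 and Ccn2 encode secreted matricellular proteins. Ccn2 had 2258, 1633 and 1770 CPM in atria with liraglutide and 681.5, 577 and 809 CPM in atria with PBS, with no overlap and a difference of 1.56 (SE 0.322, adjusted p = 0.138, edgeR). Ccn1 had 1483, 1029 and 698 CPM in atria with liraglutide and 224.5, 128 and 340.1 CPM in atria with PBS, again with no overlap and a difference of 2.32 (SE 0.501, adjusted p = 0.161). In both LV regions the groups of Ccn1 overlapped. Of the 21 tested targets 15 had a positive difference and 5 an unadjusted p under 0.05 (4.59% of all genes on the higher side), with a median of 0.20. The other members with an unadjusted p under 0.05 were Ankrd1, Crim1 and Tgfb2, named from their values. Sarcomere genes had a positive difference in 17 of 18, with a median of 0.17, and 6 had an unadjusted p under 0.05. Without atrial PBS library 2 the sarcomere median was 0.09, with 3 members at an unadjusted p under 0.05. Myh6, the alpha myosin heavy chain, had a difference of 0.16 (SE 0.159, adjusted p = 0.891) and Myh7, the beta chain, one of -0.23 (SE 0.39, adjusted p = 0.948).

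**Figure D3:**
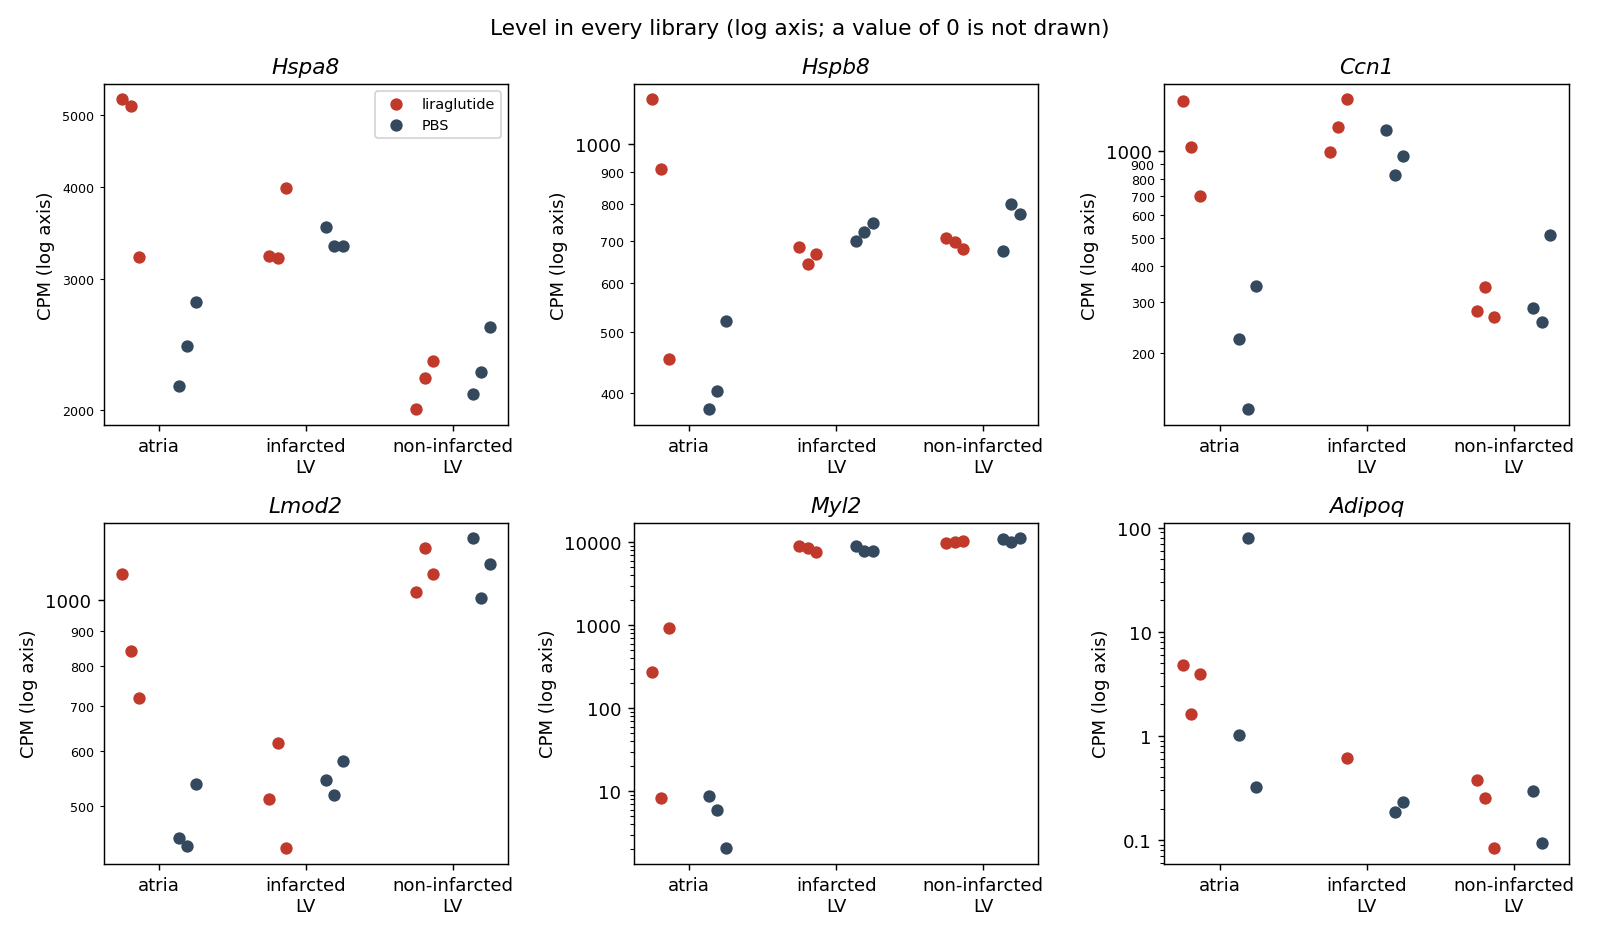
CPM (log axis) in every library of 2 chaperones, 2 mechanical stress genes and the tissue markers Myl2 and Adipoq, liraglutide left of PBS in each region; libraries at 0 CPM are not drawn. Hspa8, Ccn1 and Lmod2 separate by treatment in the atria and not in the LV, Hspb8 overlaps through liraglutide library 3, Myl2 is high in liraglutide libraries 1 and 3 and Adipoq in PBS library 2.

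Insulin receptor signalling bears on the known metabolic action of GLP-1 receptor agonists. Irs2, an insulin receptor substrate whose transcription FOXO and cAMP signals raise, had 111, 93.9 and 125 CPM in atria with liraglutide and 53.0, 52.4 and 50.5 CPM in atria with PBS, with no overlap. Infarcted LV had 208, 218 and 238 CPM with liraglutide and 202, 194 and 186 CPM with PBS, and in non-infarcted LV 33.0, 62.5 and 59.2 CPM with liraglutide and 41.9, 36.8 and 75.8 CPM with PBS. The difference was 1.10 (SE 0.312, adjusted p = 0.317, edgeR). Of 18 members 14 had a positive difference, 7 had an unadjusted p under 0.05 (4.59% of all genes on the higher side) and the median was 0.25. Without atrial PBS library 2 only 1 of the 18 had an unadjusted p under 0.05 and the median was 0.19. In the list of FOXO targets and muscle atrophy genes Sesn1, a stress-induced inhibitor of mTORC1, had 226, 211 and 189 CPM in atria with liraglutide and 116, 122 and 142 CPM in atria with PBS (difference 0.75, SE 0.167, adjusted p = 0.138). Cited2, a CBP/p300-binding regulator, had 55.5, 33.8 and 31.8 CPM in atria with liraglutide and 21.4, 18.95 and 19.96 CPM in atria with PBS (difference 1.21, SE 0.278, adjusted p = 0.175). Neither overlapped in the atria, and 3 of 18 members had an unadjusted p under 0.05.

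Fatty acid oxidation and PPAR target genes, the main fuel pathway of cardiomyocytes, had a positive difference in 21 of 24, with 13 at an unadjusted p under 0.05 (4.59% of all genes on the higher side), 0 called by edgeR and 1 called by DESeq2 (0.632%). Both sides contributed here: the median effect was 0.15 in the atria, -0.12 in infarcted and -0.13 in non-infarcted LV, and the median difference was 0.28. Fabp3, the fatty acid carrier of heart muscle, had 621, 646 and 704 CPM in atria with liraglutide and 583.5, 583 and 589 CPM in atria with PBS. Infarcted LV had 1792, 1811 and 1549 CPM with liraglutide and 1889, 1920 and 1960 CPM with PBS, and in non-infarcted LV 2564, 2598 and 2300 CPM with liraglutide and 2845, 2646 and 2626 CPM with PBS. The treatments did not overlap in any of the 3 regions in either scaling, and the difference was 0.42 (SE 0.103, adjusted p = 0.185, edgeR). Slc25a20, the carnitine-acylcarnitine carrier, had a difference of 0.38 and Acot2, a mitochondrial thioesterase, one of 0.59. Without atrial liraglutide libraries 1 and 3 and PBS library 2 the median difference was 0.305, with 1 atrial liraglutide library left. Nuclear-encoded respiratory chain subunits had a positive difference in 24 of 24 with a median of 0.10, none of them with an unadjusted p under 0.05.

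Inflammatory lists had negative medians. Of 19 tested cytokines and chemokines 17 had a negative difference and 3 an unadjusted p under 0.05 (2.94% of all genes on the lower side), with a median of -0.98. None passed in edgeR or DESeq2. Cxcl2, a neutrophil-attracting chemokine, had 7.004, 2.54 and 9.88 CPM in atria with liraglutide and 15.3, 58.0 and 43.4 CPM in atria with PBS (difference -1.85, SE 0.677, adjusted p = 0.506), and Lif, an IL-6 family cytokine, had 10.5, 4.82 and 13.9 CPM in atria with liraglutide and 15.7, 57.75 and 37.8 CPM in atria with PBS (difference -1.52, SE 0.65, adjusted p = 0.608). The atrial groups of both did not overlap. All 15 tested neutrophil markers had a negative difference, with 2 at an unadjusted p under 0.05 and a median of -1.27. S100a9, a calcium-binding protein abundant in neutrophils, had 45.3, 29.2 and 139 CPM in atria with liraglutide and 87.5, 283 and 218 CPM in atria with PBS, which overlapped. The 16 markers summed to 256 to 686 CPM in atria with liraglutide and 473.5 to 1339 CPM in atria with PBS, the highest in PBS library 2. Without that library the medians were -0.42 for the cytokines and -0.93 for the neutrophil markers, with 0 members of either list at an unadjusted p under 0.05. Without atrial liraglutide library 3 they were -1.60 and -2.01, with 13 members of each list lower at an unadjusted p under 0.05. In that fit 15.7% of all genes tested had an unadjusted p under 0.05 in either direction, against 7.53% with all libraries. Of the cytokines 1 was called by edgeR (0.441% of all genes tested were then called lower). In bulk tissue fewer cells of a type and less RNA per cell cannot be told apart.

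Genes of cholesterol and fatty acid synthesis had a negative difference in 21 of 23 and an unadjusted p under 0.05 in 10 (2.94% of all genes on the lower side), with a median of -0.53. The list moved with adipocyte markers. Its summed level was 494 to 599 CPM in atria with liraglutide and 566 to 4598 CPM in atria with PBS, and without PBS library 2, the library with adipocyte markers, the median was -0.07 and 1 member had an unadjusted p under 0.05. Hmgcs1, an early enzyme of cholesterol synthesis, had 26.9, 27.4 and 40.04 CPM in atria with liraglutide and 36.3, 50.8 and 43.3 CPM in atria with PBS (difference -0.41, SE 0.145, adjusted p = 0.417, edgeR). Adipocyte markers summed to 101.5 to 141 CPM in atria with liraglutide and 78.9 to 1444 CPM in atria with PBS, and their median turned to 1.09 without that library, against -2.65 with it. Ventricular cardiomyocyte markers had a positive difference in 10 of 11 with a median of 0.475, and the median was -0.14 without atrial liraglutide libraries 1 and 3 and PBS library 2. What part RNA of fat or ventricle has in the other results was not tested.

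**Figure D4:**
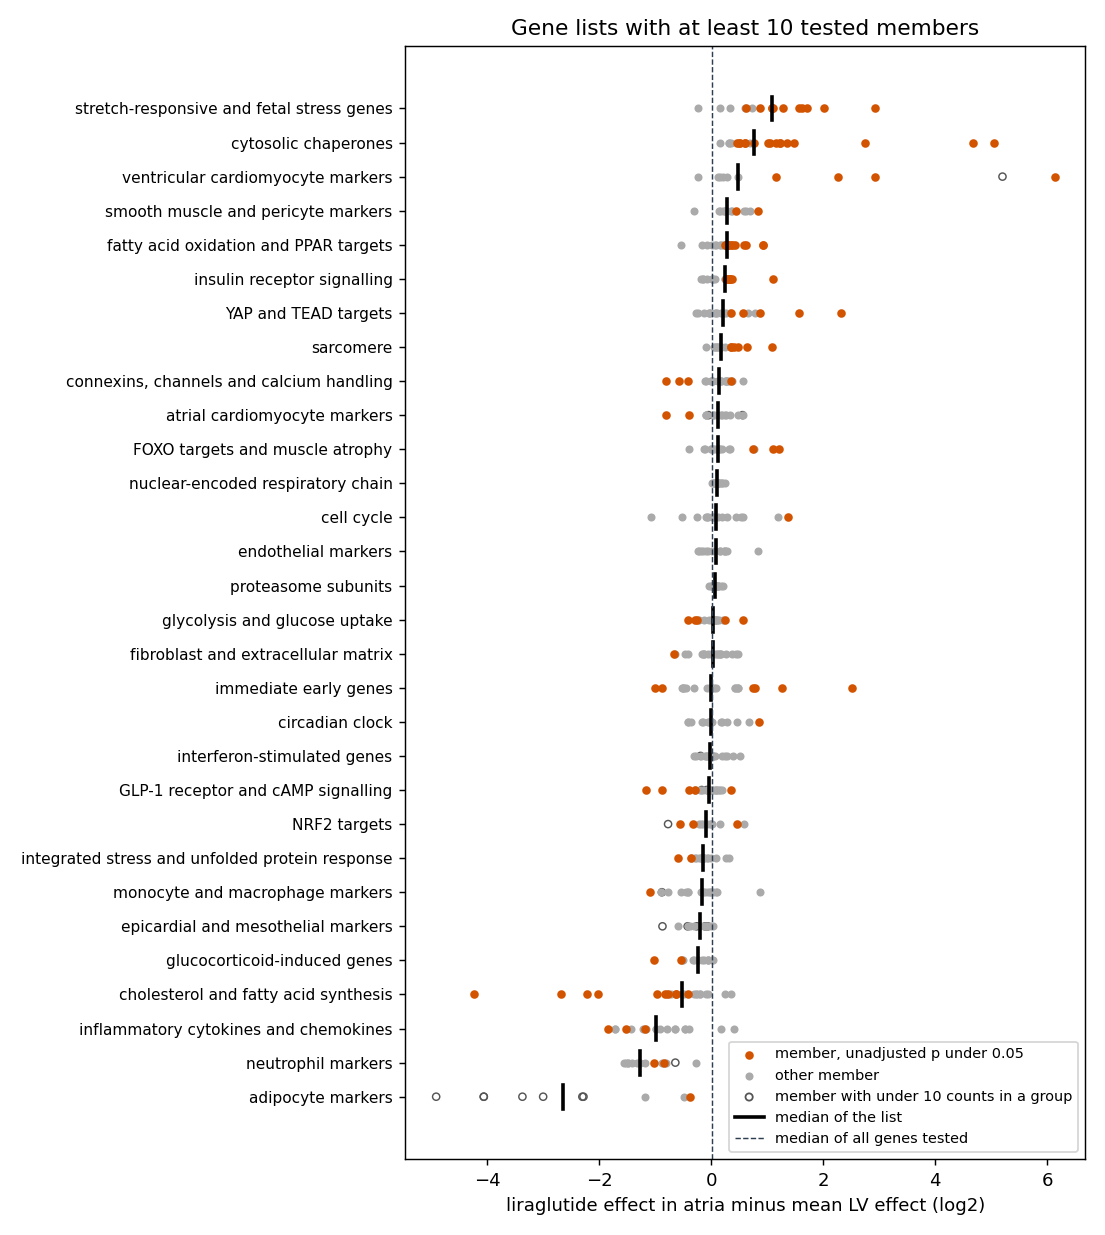
Difference of the liraglutide effect, atria minus mean LV (horizontal axis, log2), for the tested members of the 30 gene lists with at least 10 of them; bars are list medians and the dashed line the median of all genes (0.01). Stretch genes and chaperones lie to the right, neutrophil markers and cytokines to the left. Open circles are members with under 10 counts in a group.

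Of the other cell type and pathway lists, several lay near the median of all genes. Endothelial markers had a median of 0.08, fibroblast and matrix genes 0.03, interferon-stimulated genes -0.01 and proteasome subunits 0.06, and none of these lists had more than 1 member at an unadjusted p under 0.05. Smooth muscle and pericyte markers had a positive difference in 14 of 15 with a median of 0.29, led by Myocd, the coactivator myocardin (difference 0.84, SE 0.253, adjusted p = 0.345, edgeR), with 218, 195 and 124 CPM in atria with liraglutide and 116, 91.9 and 117 CPM in atria with PBS. Without atrial liraglutide libraries 1 and 3 and PBS library 2 the smooth muscle median was -0.00136, with 7 of 15 positive. Epicardial and mesothelial markers had a negative difference in 14 of 15 with a median of -0.20 and no member at an unadjusted p under 0.05. Their median was -0.0532, with 6 of 15 positive, without PBS library 2 and turned to 0.208, with 10 of 15 positive, without all 3 of those libraries. In the list for the GLP-1 receptor and cAMP signalling, 4 of 23 members had an unadjusted p under 0.05 on the lower side and 1 on the higher side. Without atrial PBS library 2 these counts were 1 and 0. Pde3b, a cAMP phosphodiesterase abundant in fat, had 11.2, 11.2 and 15.8 CPM in atria with liraglutide and 14.6, 33.0 and 13.6 CPM in atria with PBS (difference -0.88, SE 0.304, adjusted p = 0.409), highest again in PBS library 2.

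The number of genes called depended on which libraries and which test entered the fit. Without atrial liraglutide library 3 edgeR called 252 genes (1.79% of those tested), 190 higher (1.35%) and 62 lower (0.441%). Without that library and PBS library 2 it called 117 (0.838%), 105 higher (0.752%) and 12 lower (0.0859%). There were 44 genes called in each of 4 settings (DESeq2, voom with sample quality weights, and edgeR without those 1 or 2 atrial libraries), 40 higher and 4 lower in the atria. The settings and the genes were picked after the calls were seen, and the settings share most of their libraries. In 35 of the 44 the atrial groups did not overlap in CPM, against 14.7% of all genes, and in 30 after TMM scaling, against 11.2%; the genes were chosen by calls on the same values, so nothing is read from these counts. The 4 lower genes were Cdr2l, Dusp18, Mtus2 and Prr33. The higher genes included Lbh, Pwwp3b, Prkag3, Arid5b and Ctbp2, the chaperones Hspa8, Hspb8, Dnaja1 and Cryab, and the Z-disc and filament genes Csrp3, Flnc, Nrap, Lmod2 and Fhl1.

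Csrp3, the muscle LIM protein of the Z-disc, had 3121, 3026 and 1762 CPM in atria with liraglutide and 1436, 1257 and 1661 CPM in atria with PBS (difference 1.09, SE 0.259). Flnc, the actin crosslinker filamin C, had 15570, 12330 and 5627 CPM in atria with liraglutide and 4461, 3295 and 5311 CPM in atria with PBS (difference 1.65, SE 0.449). Neither overlapped in the atria, and in both liraglutide library 3 was the lowest of the 3. Magi3, a scaffold of cell junctions, had 100.1, 116 and 104 CPM in atria with liraglutide and 64.5, 60.25 and 81.6 CPM in atria with PBS (difference 0.76, SE 0.159), and Klhl31, a muscle Kelch protein, had 63.3, 55.7 and 58.4 CPM in atria with liraglutide and 37.55, 40.7 and 49.5 CPM in atria with PBS (difference 0.65, SE 0.134). Rpl3l, the ribosomal protein that replaces Rpl3 in striated muscle, had 35.5, 27.2 and 63.7 CPM in atria with liraglutide and 22.6, 21.7 and 23.8 CPM in atria with PBS, and 214 to 350.4 CPM in the LV libraries. Its highest atrial value was in liraglutide library 3, the library with most Myl2.

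**Figure D5:**
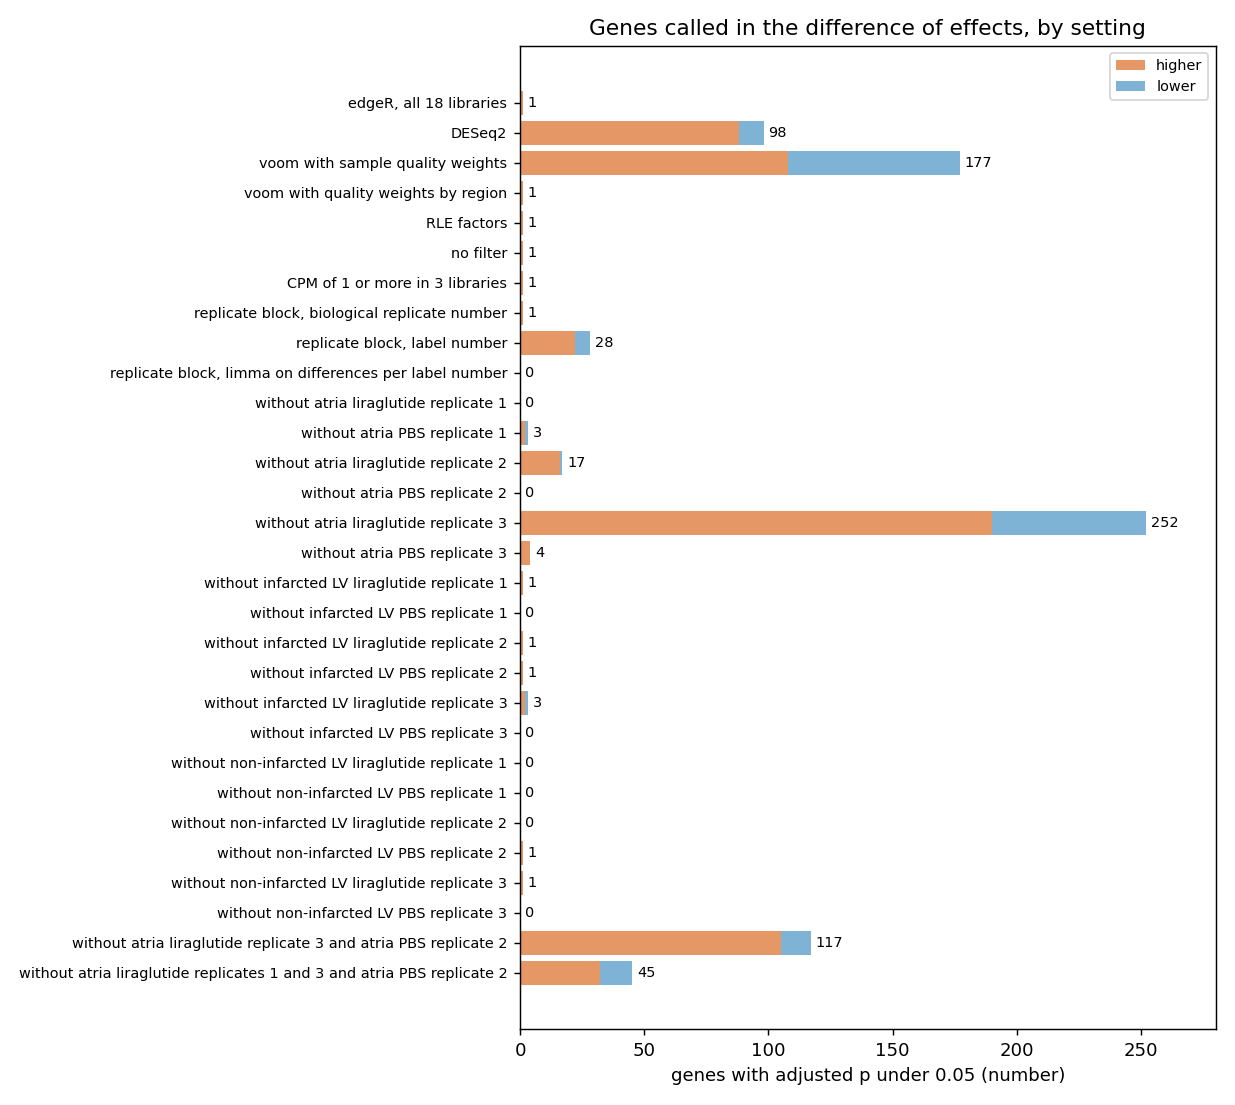
Number of genes with an adjusted p under 0.05 for the difference (horizontal axis), higher and lower in the atria, in every setting tried (vertical axis). The count is 1 with edgeR on all 18 libraries and lies between 0 and 252 when 1 library is left out, with the longest bar where atrial liraglutide library 3 is left out.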

How the data were processed

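Polyadenylated RNA of 18 heart libraries was sequenced after TRIzol extraction and a stranded TruSeq preparation, per the labels' protocols. The deposited table holds whole-number counts per gene symbol; the authors used STAR 2.7.9a, DESeq2 (no version) and mm10, per the submitters' processing notes. Which counter, strand setting and annotation were used is not given in the sources used here, so overlapping and near-identical genes may share reads. Of 25230 symbols 5537 were at 0 throughout. Libraries of a group differed beyond sampling noise (chi-square per degree of freedom 2.55 to 59.0 over 18 pairs).

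The 6 groups were fitted by robust quasi-likelihood in edgeR 4.0.16 (R 4.3.3) after TMM scaling and a filterByExpr filter, with p values adjusted by Benjamini-Hochberg over 13920 genes at 0.05. The procedure was tested on simulated data. SEs are the log2 value over the square root of F. CPM are raw counts over the library total, and TMM factors of the atria were 0.911 to 1.07 with liraglutide and 1.01 to 1.09 with PBS. No log2 difference is given for a named gene with under 10 counts in a group.

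Named genes were those past the threshold or, where fewer than 6 in a direction, the 6 with the smallest p and a mean count of at least 50; up to 3 members with the smallest p per list of at least 10 tested; and Glp1r, Irs2, Ccn2, Nppa, Nppb, Myh6, Myh7, Mtus2, Myl2, Myl3, Adipoq and Ucp1. One gene that this rule names is not reported here. Genes outside this rule are marked as chosen after their values were seen. The 35 lists (580 symbols, 578 in the table) were chosen with earlier results of these data known, as was the comparison. Alternatives were DESeq2 1.42.0, limma 3.58.1 voom with quality weights per sample or by region, RLE factors, no filter, a CPM of 1 or more in 3 libraries, replicate blocks, and libraries left out. Gene positions are from the GENCODE annotation of GRCm38 (mm10), and promoters from RefSeq.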

Additional observations from a re-analysis of the deposited data

Results flagged for a closer look

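The liraglutide effect on Lbh differed between the atria and the LV by the test of the difference itself, with a log2 difference of 1.15 (adjusted p = 0.0196, edgeR quasi-likelihood test). In CPM over the library total, Lbh was higher with liraglutide in 3 of 3 atrial libraries than in any atrial PBS library, and lower in 3 of 3 libraries than in any PBS library in each LV region. After TMM scaling the groups of infarcted LV overlapped. No other gene met this criterion in the edgeR fit with all libraries. The Lbh call was lost in 8 of 18 fits with 1 library left out. It was also lost with limma on differences per label number (adjusted p = 0.869). Lbh is a listed ventricular cardiomyocyte marker and ran in the same order as Myl2 over the 3 atrial liraglutide libraries. The part of ventricular RNA in the difference was not tested.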

How the results depend on the processing

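The number of genes called for the difference between atria and mean LV, 1 in edgeR, was 98 with DESeq2 and 177 with voom and sample quality weights. It was 117 without atrial liraglutide library 3 and PBS library 2, and 0 to 252 with 1 library left out. It was 252 without atrial liraglutide library 3, 17 without library 2, 4 without PBS library 3, 3 without PBS library 1 or infarcted LV liraglutide library 3, and 0 without atrial liraglutide library 1 or PBS library 2, infarcted LV PBS library 1 or 3, or non-infarcted LV liraglutide library 1 or 2 or PBS library 1 or 3. Against infarcted LV, 0 in edgeR, it was 26, 86 and 37 in the same order and 0 to 117 with 1 library left out. Against non-infarcted LV, 0 in edgeR, it was 35, 12 and 61, with 0 to 118 with 1 library left out. It was 1 each with quality weights by region and without a filter. The cause was not tested. Numbers in the labels were not taken to pair the libraries, since the sources do not say what a number marks. Deviations of libraries with the same label number correlated at -0.035 to 0.14 between atria and LV (3 of 12 pairs above 0.1). Between infarcted and non-infarcted LV they correlated at 0.076 to 0.139 (5 of 6 above 0.1). Libraries with the same biological replicate number correlated at -0.331 to 0.143 between treatments (2 of 9 above 0.1). Of the 18 libraries 11 correlated best with a library of their own label number. Each was set against the 12 libraries of the other regions, of which 2 shared its number. These values do not settle whether a number marks 1 animal, and if it does, the main fit leaves that pairing out. As a replicate block the label number gave 28 genes against the mean LV, 0 against infarcted and 1 against non-infarcted LV, the biological replicate number gave 1, 0 and 0, and limma on the differences per label number gave 0 genes, with fewer residual degrees of freedom. Lbh kept its direction in every setting, at 0.94 to 1.35, and lost its call with limma on differences (adjusted p = 0.869), without liraglutide libraries 1 and 3 and PBS library 2 (0.114) and in 8 of 18 left-out libraries. With libraries left out, Myl3 ran from -0.19 to 2.74, Notch3 from 0 to 0.65, Usp18 from -0.01 to 0.67, Cidea from -1.56 to 0.51 and Pparg from -0.76 to 0.13. Without atrial PBS library 2, Cidea turned to 0.35 and Pparg to 0.08. Without that library and liraglutide library 3, Cidea was 0.42 and Pparg 0.13. Without liraglutide library 1 as well, Cidea was 0.51, Myl3 -0.19, Notch3 0 and Usp18 -0.01. Over 102 named genes 2796 of 2950 values kept direction and side of the threshold. With a median SE of 0.185 for the difference and atrial PBS library 3 at 6262832 counts, effects of low genes are the least precise.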

Other observations

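Proliferation genes were scarce in all libraries. Mki67, a marker of dividing cells, had 2.60, 2.81 and 4.85 CPM in atria with liraglutide and 1.97, 2.60 and 2.71 CPM in atria with PBS. In infarcted LV it had 5.34, 4.47 and 6.94 CPM with liraglutide and 7.57, 12.5 and 8.64 CPM with PBS, groups that did not overlap, and in non-infarcted LV 3.19, 3.57 and 1.58 CPM with liraglutide and 5.35, 4.51 and 3.36 CPM with PBS. Its difference was 1.37 (SE 0.347, adjusted p = 0.187, edgeR), and it was the 1 member of 16 tested cell cycle genes with an unadjusted p under 0.05, where the median was 0.08.

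Immediate early genes split. Atf3, a stress-induced transcription factor, had 732.5, 355 and 113 CPM in atria with liraglutide and 81.5, 77.9 and 117 CPM in atria with PBS (difference 2.51, SE 0.812, adjusted p = 0.398, edgeR), overlapping through liraglutide library 3 as Hspb8 did. Myc had 107, 81.0 and 66.0 CPM in atria with liraglutide and 58.3, 56.4 and 55.4 CPM in atria with PBS (difference 0.74, SE 0.219, adjusted p = 0.317). The list had a median of 0.01 over 23 members, with 4 higher and 2 lower at an unadjusted p under 0.05. Glucocorticoid-induced genes had a negative difference in 13 of 15 with a median of -0.23, and 2 had an unadjusted p under 0.05. Without atrial PBS library 2 their median was -0.17 and 0 had an unadjusted p under 0.05. Nqo1, a quinone reductase regulated by NRF2, had 10.8, 8.70 and 14.4 CPM in atria with liraglutide and 6.85, 8.33 and 7.03 CPM in atria with PBS (difference 0.46, SE 0.158, adjusted p = 0.386). Infarcted LV had 52.07, 47.13 and 43.84 CPM with liraglutide and 43.15, 37.5 and 37.15 CPM with PBS. Non-infarcted LV had 75.09, 65.29 and 65.54 CPM with liraglutide and 61.47, 64.71 and 52.03 CPM with PBS. In CPM Nqo1 was thus higher with liraglutide, without overlap, in all 3 regions. After TMM scaling infarcted LV overlapped. Of the 13 NRF2 targets 4 had a positive and 9 a negative difference, with a median of -0.08 and 1 higher and 2 lower at an unadjusted p under 0.05. The lower ones, named from their values, were Txnrd1, a thioredoxin reductase (-0.33), and Gsr, glutathione reductase (-0.56). Gsr was highest in atrial PBS library 2 (57.96 CPM). Without that library the median of the NRF2 targets was 0.03, with 7 of 13 positive. In that fit 1 target was higher and 1 lower at an unadjusted p under 0.05.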
